A study of Saccharomyces cerevisiae with 12 samples.

Results

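The 33 genes described here encode the yeast enzymes that carry glucose to pyruvate, ethanol, acetate and glycerol, together with the gluconeogenic enzymes that run against glycolysis. They were taken by gene name from a count table of 6216 features, with earlier results of these data known, and all 33 passed the filter on low counts. By place in the pathway there were 3 genes of hexose phosphorylation, 5 of upper glycolysis, 9 of lower glycolysis, 3 of pyruvate decarboxylation, 4 alcohol dehydrogenases, 2 of glycerol synthesis, 2 of gluconeogenesis and 5 of acetate and acetyl-CoA formation. The RNA came from Saccharomyces cerevisiae BY4741, a haploid laboratory strain that lacks working HIS3, LEU2, MET17 and URA3, growing exponentially in YPD, a rich medium with glucose. Concanamycin A, a macrolide inhibitor of the V-ATPase proton pump of the vacuole, was present at 500 nM for 0, 1, 3 or 6 h, with 3 libraries of rRNA-depleted total RNA at each time. Strain and medium were the same throughout, and 0 h was the only reference. Untreated cultures of matching age were not analysed here, so hours of growth and hours of exposure cannot be told apart. Whether replicate libraries stem from separate cultures is not in the labels, so p-values reflect the spread between these libraries, which may be technical.

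Glycolysis splits a hexose into pyruvate and yields ATP and NADH. In yeast growing on glucose, pyruvate is mostly decarboxylated to acetaldehyde and reduced to ethanol, which restores NAD+, while glycerol formation disposes of surplus NADH. Many steps have a major isoenzyme that is abundant on glucose and minor ones known to respond to carbon source, stress or growth rate. Gcr1 and Rap1 are the known activators of the major glycolytic genes, Mig1 and Hxk2 act in glucose repression, and Msn2 and Msn4 act through the stress response element.

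The 3 glucose-phosphorylating genes carried unlike matches in their promoters and are shown for that reason. The windows are the bases from 400 to 101 before the start codon, 300 bases each, from the RefSeq genome of build R64, read 5′ to 3′ along the gene: chrIII:50438-50737 on the plus strand for GLK1, chrVI:255150-255449 on the minus strand for HXK1 and chrVII:23535-23834 on the plus strand for HXK2. Capitals mark AGGGG, the stress response element, and the Mig1-like GC box (GCGGGG, or with GT, CC or CT in place of its leading GC), each on either strand.
GLK1: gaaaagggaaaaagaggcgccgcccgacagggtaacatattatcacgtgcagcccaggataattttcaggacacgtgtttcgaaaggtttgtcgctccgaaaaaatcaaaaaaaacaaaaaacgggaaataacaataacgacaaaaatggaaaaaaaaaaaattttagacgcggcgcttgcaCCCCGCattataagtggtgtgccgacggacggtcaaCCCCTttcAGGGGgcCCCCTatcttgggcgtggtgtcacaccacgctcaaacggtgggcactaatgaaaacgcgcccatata
HXK1: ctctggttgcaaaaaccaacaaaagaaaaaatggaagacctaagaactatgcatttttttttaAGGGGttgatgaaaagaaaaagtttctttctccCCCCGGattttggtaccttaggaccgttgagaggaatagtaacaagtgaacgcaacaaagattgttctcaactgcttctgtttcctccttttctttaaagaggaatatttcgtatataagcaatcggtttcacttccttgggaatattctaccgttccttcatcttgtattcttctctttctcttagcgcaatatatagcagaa
HXK2: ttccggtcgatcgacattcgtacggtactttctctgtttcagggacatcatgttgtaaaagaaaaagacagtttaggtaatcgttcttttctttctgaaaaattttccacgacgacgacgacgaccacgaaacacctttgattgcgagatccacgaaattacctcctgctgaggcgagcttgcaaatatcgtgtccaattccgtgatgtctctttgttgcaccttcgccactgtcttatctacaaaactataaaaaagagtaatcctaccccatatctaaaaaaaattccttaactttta
The GLK1 window held AGGGG 3 times and 1 Mig1-like word, the HXK1 window held 1 of each, and the HXK2 window held 0 of either. Of the GLK1 window, 154 bases lie inside the reading frame YCL042W. AGGGG was found in 18 of 33 member windows (54.5%) and in 23.9% of all 5765 windows of the same length, and a Mig1-like word in 8 of 33 (24.2%) against 15.04%. CTTCC, the core of the Gcr1 site, stood in 20 of 33 windows (60.6%) against 46.4% of all windows, the carbon source response element in 5 of 33 (15.2%) against 5.1%, and a Rap1-like word in 3 of 33 (9.09%) against 4.11%. In the other isoenzyme families AGGGG stood 1, 1 and 0 times for PDC1, PDC5 and PDC6. It stood 1, 0 and 2 times for TDH1, TDH2 and TDH3, and 0 times for ENO1 and ENO2. ADH1, ADH2, ADH3 and ADH5 held 1, 0, 0 and 1, and CDC19 and PYK2 held 1 each. GPD1 and GPD2 held 2 and 1, ALD4, ALD5 and ALD6 held 2, 1 and 1, and ACS1 and ACS2 held 2 and 0. Whether matches go with changes in level was not tested. These matches are letters in a window, not tested as sites, and other bases of the promoters were not searched.

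Coordinates are of build R64. Library totals ran from 8508894 to 11008709 counts. LEU2, URA3 and MET17 held 8, 20 and 0 counts in the 12 libraries together, while HIS3, which this strain lacks in part, held 363 to 860 per library. Levels are given as CPM, depth-scaled counts on the usual CPM scale after the TMM scaling of edgeR, for replicates 1, 2 and 3 in that order. Fold changes are log2 values ± SE from edgeR's quasi-likelihood test with Benjamini-Hochberg adjustment over 5615 tested features, and "rose" and "fell" are used for an adjusted p under 0.05. Scaling by total counts in place of TMM put the median of all tested features at a log2 fold change of 0.21 at 1 h, 0.35 at 3 h and 0.34 at 6 h against 0 h, and changes are relative to that shift. The comparisons with 0 h share their 0 h libraries.

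Replicate 3 at 0 h stood apart from replicates 1 and 2. In log2 CPM it lay below their mean by a difference of -3.06 for HXK1, -1.63 for ALD4, -1.32 for GLK1, -1.29 for PDC6, -1.08 for PYK2, -0.99 for FBP1, -0.92 for ADH5, -0.79 for GPD1, -0.78 for TDH1, -0.66 for ACS1 and -0.61 for ENO1, while ALD6 lay above by 0.44. Several major genes, unlike ALD6 and GPD1, were close in the same library, with 0.020 for TDH3, 0.021 for PDC1, -0.0077 for CDC19, -0.020 for FBA1 and -0.13 for HXK2. A list of 14 stress genes, among them HSP12 and CTT1, summed to 2662 CPM of the unscaled library total in that library against 4377 and 4355 in the other 0 h libraries. The later libraries had 4716 to 5236 (1 h), 4185 to 4264 (3 h) and 8263 to 9011 (6 h). The part of these genes' response in the results was not tested, and values without 0 h replicate 3 are given where they differ. Those values set 0 h replicates 1 and 2 against all replicates of the later times. For HXK1, ALD4, GLK1, PYK2, ADH5, TDH1 and ENO1, replicate 3 was also the lowest of its time at 1, 3 and 6 h. For PDC6, FBP1, GPD1 and ACS1 it was not so at every time. Whether this order shifts the values without 0 h replicate 3 was not tested.

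**Figure D1:**
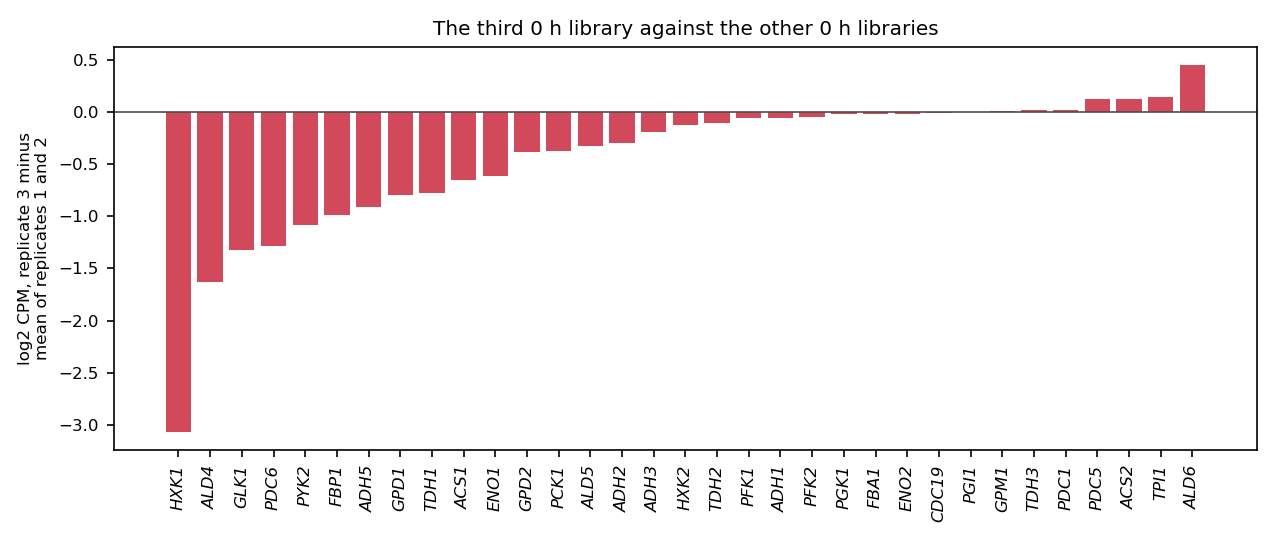
Bars show, for each of the 33 genes, the log2 CPM of 0 h replicate 3 minus the mean log2 CPM of 0 h replicates 1 and 2. HXK1 stands lowest at -3.06, followed by ALD4 at -1.63 and GLK1 at -1.32, and ALD6 stands highest at 0.44.

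The 33 genes took a smaller part of the libraries at each later time. In RNA from a whole culture, a change in some cells and a smaller change in all cells cannot be told apart. Of all counts they held 13.4%, 13.4% and 12.6% (0 h), 12.4%, 11.9% and 11.4% (1 h), 10.8%, 11.1% and 10.7% (3 h), and 8.69%, 9.26% and 9.12% (6 h). No library of a time reached into the range of an earlier time. Of the counts in nuclear open reading frames alone the ranges were 14.4% to 15.1%, 12.9% to 13.6%, 11.9% to 12.5% and 10.6% to 10.9%, again without overlap. Lower glycolysis was the largest branch, with 6.60% ± 0.219 (SD, n = 3) of all counts at 0 h, 6.41% ± 0.292 at 1 h, 5.56% ± 0.143 at 3 h and 4.37% ± 0.157 at 6 h. Upper glycolysis went from 2.81% ± 0.0663 to 2.38% ± 0.0751, 2.05% ± 0.0318 and 1.67% ± 0.0858. FBA1 alone went from 1.68% ± 0.0506 to 1.31% ± 0.0313, 0.994% ± 0.0193 and 0.807% ± 0.0687. Single genes did not all go down at each step. TDH3 went from 1.66% ± 0.0252 to 1.77% ± 0.116, 1.54% ± 0.0565 and 1.08% ± 0.0419. PDC1 went from 2.17% ± 0.0272 to 1.75% ± 0.0632, 2.01% ± 0.0635 and 1.76% ± 0.086.

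**Figure D2:**
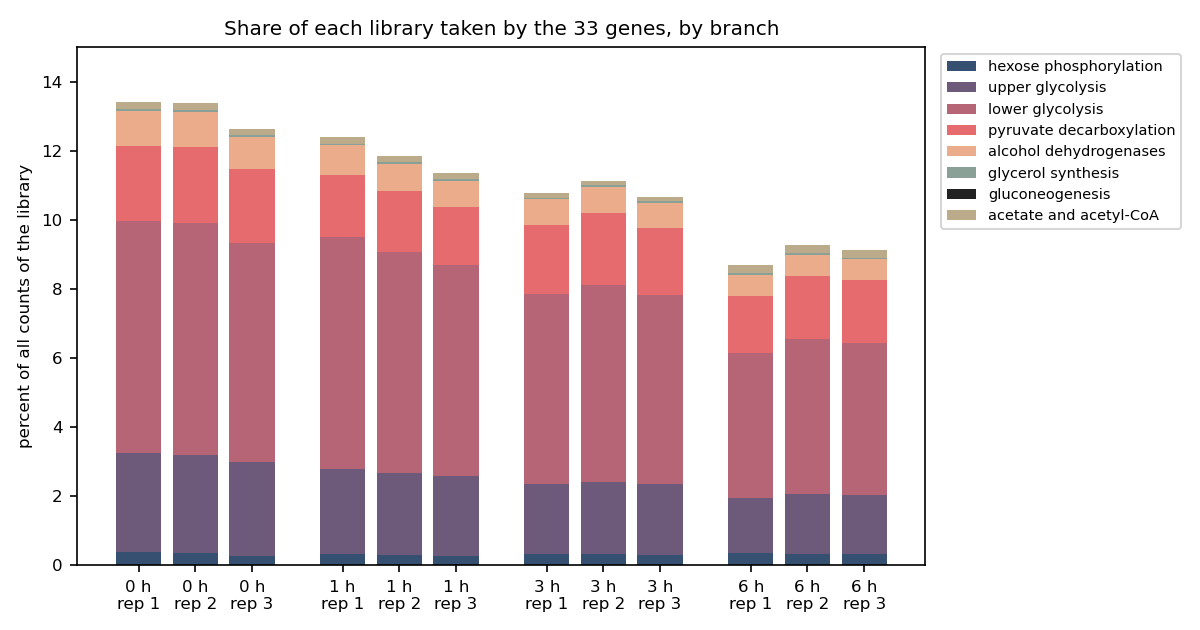
Stacked bars give the percent of all counts of each library that fell on the 33 genes, by branch, with libraries in order of time. Bar height drops from 12.6% to 13.4% in the 0 h libraries to 8.69% to 9.26% in the 6 h libraries, and most of the drop is in the lower and upper glycolysis layers.

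At 1 h, 18 of the 33 genes fell against 23.4% of all tested features, and 0 rose against 24.5%. The count of 0 stood with edgeR also at an unadjusted p under 0.05, and DESeq2 gave 18 lower and 0 higher. Their median log2 fold change was -0.34, and -0.0036 over all tested features. At 3 h, 22 fell (24.5% of all features) and 1 rose (26.3%), PDC6, with a median of -0.60 against 0.020. At 6 h, 19 fell (28.9%) and 3 rose (33.04%), PDC6, PCK1 and ACS1 (5 without 0 h replicate 1), with a median of -0.38 against 0.045. Total counts gave 12 lower and 2 higher (1 h), 16 and 4 (3 h), and 16 and 7 (6 h). Leaving out 0 h replicate 3 gave 25 lower and 0 higher (1 h), 26 and 1 (3 h), and 23 and 3 (6 h).

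Between consecutive times more of the genes fell than rose. From 1 h to 3 h, 14 of 33 fell (17.6% of all features) and 2 rose (16.9%), namely TDH1 and PDC6, and with total counts 9 fell and 6 rose. From 3 h to 6 h, 15 fell (21.7%) and 10 rose (20.96%). The 10 became 6 without 3 h replicate 1, 3 h replicate 3 or 6 h replicate 1, a share near the 20.96% of all features. Without 0 h replicate 3 they became 15, beside 15 that fell. The genes that fell from 3 h to 6 h were HXK2, all 5 of upper glycolysis, TDH2, TDH3, PGK1, GPM1, ENO2, CDC19, PDC1, ADH1 and ADH3. Those that rose were TDH1, ENO1, PDC6, GPD1, GPD2, PCK1, FBP1, ALD5, ALD6 and ACS1. Over the 4 times together 28 of 33 changed by edgeR's F test, a share close to the 78.5% of all features.

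**Figure D3:**
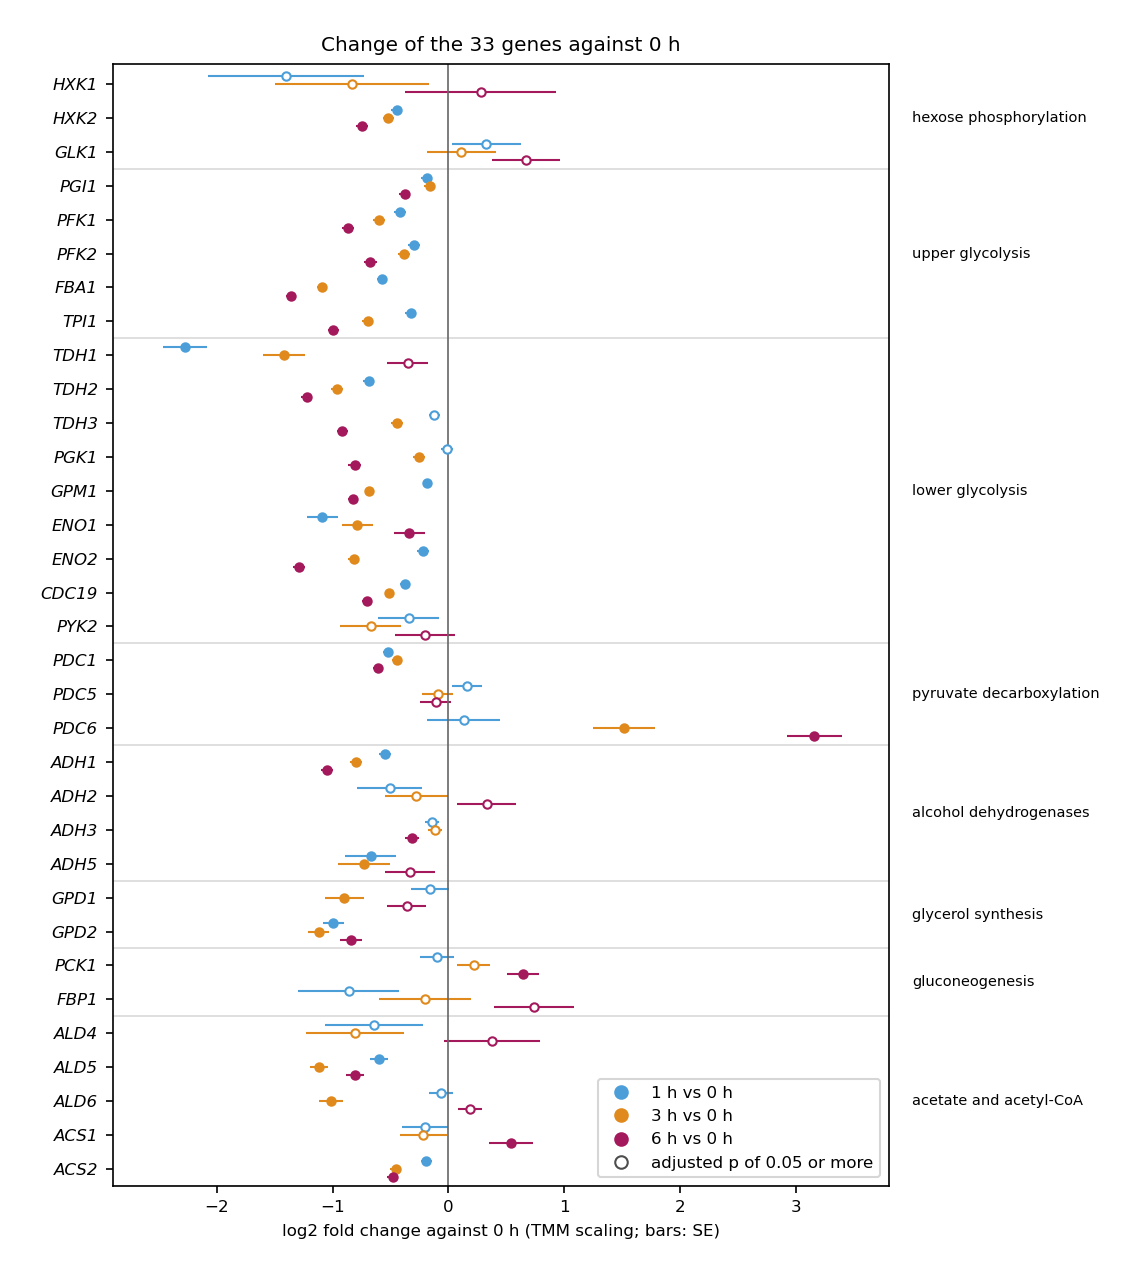
Points give the log2 fold change of each gene against 0 h at 1 h (blue), 3 h (orange) and 6 h (purple), bars give the SE, and open points have an adjusted p of 0.05 or more. Most filled points lie left of 0, and PDC6 stands apart on the right at 1.51 for 3 h and 3.16 for 6 h.

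Hexose phosphorylation showed a falling HXK2 beside a GLK1 whose call at 6 h depended on the tool and the libraries. HXK2 (YGL253W, chromosome VII, 23935 to 25395, plus strand), the main hexokinase on glucose, stood at 2812, 2853 and 2597 CPM (0 h), 2138, 2016 and 1903 (1 h), 1928, 1955 and 1886 (3 h) and 1656, 1652 and 1619.5 (6 h). Every library after 0 h lay below all 0 h libraries. HXK2 fell, with log2 fold changes of -0.45 ± 0.050 (adjusted p = 8.42e-06), -0.52 ± 0.050 (adjusted p = 2.02e-06) and -0.75 ± 0.050 (adjusted p = 2.78e-08) at 1, 3 and 6 h. GLK1 (YCL040W, chromosome III, 50838 to 52340, plus strand), the glucokinase, stood at 798, 687 and 297 CPM (0 h), 844, 719 and 676 (1 h), 701, 633 and 592 (3 h) and 1093, 890.4 and 850.2 (6 h). Replicate 3 at 0 h was the lowest of the 12, and its 6 h libraries lay above all others. Log2 fold changes were 0.33 ± 0.30 (adjusted p = 0.387), 0.11 ± 0.30 (adjusted p = 0.777) and 0.67 ± 0.30 (adjusted p = 0.0768) against 0 h, so the main edgeR fit did not call GLK1. DESeq2 with all libraries called it higher at 6 h, at 0.64 (adjusted p = 0.042). With edgeR the value at 6 h was 0.31 (adjusted p = 0.0821) without 0 h replicate 3, 0.94 (adjusted p = 0.0302) without 0 h replicate 1 and 0.95 (adjusted p = 0.0191) with total counts. With the A to C letters of the table's header as a block it was 0.73 (adjusted p = 0.0388). GLK1 overlaps the reading frame YCL042W, so its counts are uncertain.

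HXK1 (YFR053C, chromosome VI, 253592 to 255049, minus strand), the other hexokinase, is known to be repressed by glucose. Its levels were 715, 576 and 76.8 CPM (0 h), 252, 152 and 115 (1 h), 299, 248 and 222 (3 h) and 770.0, 469 and 422 (6 h). The 0 h libraries spanned almost the whole range of the series, from the lowest value to the second highest. With all libraries HXK1 was not called against 0 h, at -1.40 ± 0.67 (adjusted p = 0.118) for 1 h, -0.83 ± 0.66 (adjusted p = 0.321) for 3 h and 0.28 ± 0.65 (adjusted p = 0.735) for 6 h. With 0 h replicate 3 left out it fell at 1 h (log2 change -1.94, adjusted p = 0.00359) and at 3 h (-1.37, adjusted p = 0.016), and at 6 h it stood at -0.26 (adjusted p = 0.569). Every 6 h library lay above every 3 h library, a log2 difference of 1.11 ± 0.66 (adjusted p = 0.21), and of 1.10 (adjusted p = 0.0303) when 0 h replicate 3 was left out of the shared fit.

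All 5 genes of upper glycolysis fell at 1, 3 and 6 h, and with total counts 3, 3 and 4 of them did, while PGI1 rose at 3 h. FBA1, the fructose-bisphosphate aldolase, fell most of the 5. FBA1 (YKL060C, chromosome XI, 326408 to 327487, minus strand) stood at 19577, 19516 and 19274 CPM (0 h), 13190.5, 13233 and 12793 (1 h), 9055, 9244 and 9076 (3 h) and 7091, 7992 and 7680.4 (6 h). Each time lay wholly below the one before. FBA1 fell on the log2 scale, with changes of -0.57 ± 0.043 (adjusted p = 2.02e-07), -1.09 ± 0.044 (adjusted p = 4.9e-10) and -1.36 ± 0.044 (adjusted p = 3.69e-11). From 1 h to 3 h the change was -0.52 ± 0.043 and from 3 h to 6 h -0.27 ± 0.043. TPI1, the triose-phosphate isomerase, stood at 3724, 3695 and 4078 CPM (0 h), 2969.8, 2992 and 3209.7 (1 h), 2378, 2429 and 2289.9 (3 h) and 1953, 1909 and 1913 (6 h). It took the same stepwise course without overlap between times, with log2 fold changes of -0.33 ± 0.048, -0.70 ± 0.049 and -0.99 ± 0.049.

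PFK1 and PFK2 encode the alpha and beta subunits of phosphofructokinase, the committing step of glycolysis. PFK1 stood at 2303, 2299 and 2205 CPM (0 h), 1832, 1673 and 1589 (1 h), 1527, 1529.7 and 1445 (3 h) and 1259.5, 1241 and 1233 (6 h). PFK2 stood at 2631, 2603 and 2532 CPM (0 h), 2297, 2076 and 1944 (1 h), 2004, 1989.6 and 1951 (3 h) and 1589.9, 1674 and 1604 (6 h). Both fell at each time, PFK1 by log2 changes of -0.42 ± 0.051, -0.60 ± 0.052 and -0.87 ± 0.052, and PFK2 of -0.30 ± 0.054, -0.39 ± 0.054 and -0.67 ± 0.054. With total counts PFK2 was not called at 1 h (-0.085, adjusted p = 0.261) or 3 h (-0.052, adjusted p = 0.466). From 1 h to 3 h, PFK1 fell, with a log2 fold change of -0.18 ± 0.051, a call that ended without 1 h replicate 1 or 3 h replicate 3 (adjusted p from 0.068 to 0.0827) and with total counts. PGI1, the glucose-6-phosphate isomerase, stood at 4299, 4389 and 4344 CPM (0 h), 4059.8, 3781 and 3593 (1 h), 3899, 4036 and 3726 (3 h) and 3413, 3341 and 3269.6 (6 h). PGI1 fell, with log2 fold changes of -0.19 ± 0.048 (adjusted p = 0.00583), -0.16 ± 0.048 (adjusted p = 0.0141) and -0.38 ± 0.048 (adjusted p = 1.49e-05) under TMM scaling. Total counts gave 0.025 at 1 h, 0.17 at 3 h and -0.080 at 6 h, with the sign turned at 1 and 3 h. Its call at 3 h also ended without 3 h replicate 3 (adjusted p = 0.0666).

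In lower glycolysis the major genes TDH2, GPM1, ENO2 and CDC19 fell at 1, 3 and 6 h against 0 h under TMM scaling, TDH3 and PGK1 at 3 and 6 h, while TDH1 and ENO1 fell at 1 h and rose from 3 h to 6 h. TDH1, TDH2 and TDH3 encode glyceraldehyde-3-phosphate dehydrogenase, TDH3 being the main form in growing cells. TDH3 (YGR192C, chromosome VII, 882812 to 883810, minus strand) stood at 18825, 19497 and 19428 CPM (0 h), 18430.4, 18150.2 and 16467 (1 h), 14365, 14724 and 13394 (3 h) and 10099.6, 10436 and 10058 (6 h). Each time lay below the one before it. It was at -0.12 ± 0.049 (adjusted p = 0.0561) at 1 h, and fell, with log2 fold changes of -0.44 ± 0.049 (adjusted p = 7.93e-06) at 3 h and -0.92 ± 0.050 (adjusted p = 3.22e-09) at 6 h. At 3 h total counts gave -0.11 (adjusted p = 0.0769), and at 1 h the call was made without 0 h replicate 3, 1 h replicate 1 or 3 h replicate 3 (adjusted p from 0.031 to 0.043). TDH2 stood at 2941, 2936 and 2721 CPM (0 h), 1818, 1811 and 1707 (1 h), 1465, 1525 and 1429 (3 h) and 1258, 1253 and 1168 (6 h). TDH2 fell in every comparison, of -0.69 ± 0.049, -0.96 ± 0.049 and -1.22 ± 0.050 against 0 h.

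TDH1 (YJL052W, chromosome X, 338271 to 339269, plus strand), a form known from slow growth and stationary phase, stood at 1181, 1193 and 690.2 CPM (0 h), 209.8, 217 and 208 (1 h), 387, 405 and 353 (3 h) and 919.5, 761 and 719 (6 h). The 1 h libraries lay close together at the lowest level of the series, and the 6 h libraries overlapped those at 0 h. TDH1 fell, with log2 fold changes of -2.27 ± 0.19 (adjusted p = 4.4e-06) at 1 h, the largest decrease among the 33 genes, and of -1.42 ± 0.18 (adjusted p = 0.000113) at 3 h. It then rose by 0.85 ± 0.18 (adjusted p = 0.00534) from 1 h to 3 h and by 1.07 ± 0.18 (adjusted p = 0.00116) from 3 h to 6 h. At 6 h it stood at -0.35 ± 0.18 (adjusted p = 0.113) against 0 h, which DESeq2 called lower at -0.38 (adjusted p = 0.0324), and at -0.61 (adjusted p = 1.95e-05) without 0 h replicate 3. ENO1 (YGR254W, chromosome VII, 1000927 to 1002240, plus strand), the minor enolase, stood at 2460.0, 2369 and 1577 CPM (0 h), 1028, 995 and 989 (1 h), 1249, 1289 and 1172 (3 h) and 1815, 1644 and 1607 (6 h). ENO1 fell, with log2 fold changes of -1.09 ± 0.13 (adjusted p = 5.66e-05) at 1 h and -0.79 ± 0.13 (adjusted p = 0.000566) at 3 h. Every 6 h library lay above every 3 h library, a rise of 0.45 ± 0.13 (adjusted p = 0.0196). That rise was lost without 3 h replicate 3 or 6 h replicate 1 (adjusted p from 0.0668 to 0.0713). At 6 h ENO1 was at -0.34 ± 0.13 (adjusted p = 0.0445) against 0 h, a call that ended without any of 10 libraries, each left out in turn (adjusted p 0.0551 to 0.166), and with total counts (-0.046, adjusted p = 0.78), but was -0.56 (adjusted p = 4e-07) without 0 h replicate 3.

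ENO2, the main enolase on glucose, stood at 16603, 16841 and 16511 CPM (0 h), 15208, 14106 and 13523 (1 h), 9375, 9836 and 9104 (3 h) and 6512, 7035 and 6906 (6 h). Each time lay below the one before it. ENO2 fell, with log2 fold changes of -0.22 ± 0.049 (adjusted p = 0.00238), -0.82 ± 0.050 (adjusted p = 1.83e-08) and -1.29 ± 0.050 (adjusted p = 1.67e-10), and with total counts its change at 1 h was -0.0087 (adjusted p = 0.908). GPM1, the phosphoglycerate mutase, stood at 9218, 9457 and 9377 CPM (0 h), 8284, 8227 and 8112 (1 h), 5840.0, 5945 and 5680.5 (3 h) and 5354, 5297 and 5151 (6 h). GPM1 fell, with log2 fold changes of -0.19 ± 0.035 at 1 h, where total counts turned the sign (0.025), and of -0.68 ± 0.035 and -0.83 ± 0.036 at 3 and 6 h. PGK1, the phosphoglycerate kinase, stood at 7160.2, 7285 and 7105 CPM (0 h), 7493, 6924 and 6894 (1 h), 6147, 6286 and 5648 (3 h) and 4314, 4087 and 3886 (6 h). Its 1 h libraries overlapped those at 0 h (-0.016 ± 0.053, adjusted p = 0.826, and 0.20, adjusted p = 0.00435 with total counts), and it fell, with log2 fold changes of -0.25 ± 0.053 (adjusted p = 0.0015) at 3 h, where total counts gave 0.081, and of -0.81 ± 0.053 (adjusted p = 2.16e-08) at 6 h. Its change from 1 h to 3 h was -0.24 ± 0.053, a call that ended with total counts (-0.12, adjusted p = 0.0793).

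CDC19 and PYK2 encode pyruvate kinase, the last step of glycolysis. CDC19, the form used on glucose, stood at 17631, 18122 and 17780.3 CPM (0 h), 14136, 13358 and 13655 (1 h), 12447, 12690.5 and 12392 (3 h) and 10418, 11262 and 11112 (6 h). CDC19 fell, with log2 fold changes of -0.38 ± 0.040 (adjusted p = 4.7e-06), -0.51 ± 0.040 (adjusted p = 2.35e-07) and -0.71 ± 0.040 (adjusted p = 4.66e-09). From 1 h to 3 h it fell, with a log2 fold change of -0.13 ± 0.040, a call that ended without 1 h replicate 1 or 3 h replicate 1 or 3 (adjusted p from 0.0634 to 0.07) and with total counts. PYK2, a form active at low glycolytic flux, stood at 119.9, 108 and 53.6 CPM (0 h), 84.4, 71.8 and 66.9 (1 h), 61.1, 63.6 and 52.9 (3 h) and 98.5, 82.3 and 64.6 (6 h). In the main edgeR fit PYK2 was not called against 0 h, at -0.34 ± 0.26 (adjusted p = 0.307), -0.67 ± 0.27 (adjusted p = 0.0589) and -0.20 ± 0.26 (adjusted p = 0.523). DESeq2 with all libraries called it lower at 3 h, at -0.68 (adjusted p = 0.0414). So did edgeR with the A to C letters of the table's header as a block (-0.62, adjusted p = 0.0169). When 0 h replicate 3 was left out PYK2 fell at each time, with log2 fold changes of -0.66 (adjusted p = 0.00882), -0.98 (adjusted p = 0.000931) and -0.52 (adjusted p = 0.0219).

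Pyruvate decarboxylation held the largest rise among the 33 genes, in PDC6. PDC1, the main pyruvate decarboxylase, stood at 24751, 25353 and 25412 CPM (0 h), 17966, 17573 and 16920.0 (1 h), 18560.1, 19190.1 and 17685 (3 h) and 16113, 16719.7 and 16708 (6 h). It fell against 0 h at each time, at -0.53 ± 0.040 (adjusted p = 2.37e-07) for 1 h, -0.45 ± 0.040 (adjusted p = 1.09e-06) at 3 h and -0.61 ± 0.040 (adjusted p = 2.52e-08) at 6 h. From 1 h to 3 h it stood at 0.080 ± 0.040 (adjusted p = 0.145), and at 0.20 (adjusted p = 0.00427) with total counts. PDC5, the second form, known to be induced when PDC1 is lost, stood at 23.4, 19.0 and 22.9 CPM (0 h), 25.7, 25.5 and 22.1 (1 h), 17.3, 24.6 and 19.5 (3 h) and 20.3, 18.7 and 21.7 (6 h). Each later time overlapped 0 h, with log2 fold changes of 0.16 ± 0.13 (adjusted p = 0.321), -0.095 ± 0.13 (adjusted p = 0.566) and -0.11 ± 0.13 (adjusted p = 0.48), and a call at 1 h with total counts alone (0.37, adjusted p = 0.0277).

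PDC6 (YGR087C, chromosome VII, 651290 to 652981, minus strand), a minor form whose protein is poor in sulfur amino acids, had raw counts of 21, 19 and 7 (0 h), 23, 19 and 20 (1 h), 41, 57 and 63 (3 h) and 173, 185 and 129 (6 h). Scaled for depth these were 2.16, 2.43 and 0.938 CPM (0 h), 2.40, 1.85 and 1.92 (1 h), 4.45, 6.05 and 5.57 (3 h) and 17.4, 19.0 and 14.0 (6 h). The 1 h libraries overlapped 0 h, the 3 h libraries lay above both, and the 6 h libraries lay above all others. PDC6 was at 0.13 ± 0.31 (adjusted p = 0.757) at 1 h, rose by 1.51 ± 0.27 (adjusted p = 0.000453) at 3 h and by 3.16 ± 0.24 (adjusted p = 8.28e-08) at 6 h. It rose by 1.38 ± 0.25 from 1 h to 3 h and 1.65 ± 0.19 from 3 h to 6 h. Without 0 h replicate 3, its lowest library, the rises were 1.19 (adjusted p = 0.000771) and 2.83 (adjusted p = 8.12e-09). Even at 6 h PDC6 reached 9.93 ± 1.52 CPM per kb (mean ± SD, n = 3), against 9759.8 ± 205 CPM per kb for PDC1.

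Of the alcohol dehydrogenases, ADH1, which makes ethanol on glucose, fell at each time against 0 h. ADH1 (YOL086C, chromosome XV, 159548 to 160594, minus strand) stood at 10349, 10615 and 10060.0 CPM (0 h), 7553, 6928 and 6741 (1 h), 6103, 6036 and 5679 (3 h) and 5231, 5004 and 4769 (6 h), with each time below the one before. ADH1 fell, with log2 fold changes of -0.55 ± 0.052 (adjusted p = 1.86e-06), -0.80 ± 0.052 (adjusted p = 4.05e-08) and -1.05 ± 0.052 (adjusted p = 1.45e-09). The change of ADH1 from 1 h to 3 h was -0.25 ± 0.052 (adjusted p = 0.00233), a call that ended with total counts (-0.13, adjusted p = 0.0595). ADH2, the glucose-repressed form that oxidises ethanol, stood at 2.68, 2.94 and 2.28 CPM (0 h), 1.78, 1.27 and 2.49 (1 h), 2.28, 2.33 and 1.95 (3 h) and 4.34, 2.88 and 2.71 (6 h). It held 13 to 43 raw counts per library and was not called against 0 h (0.33 ± 0.26, adjusted p = 0.281 at 6 h, and 0.62, adjusted p = 0.0383 with total counts). ADH1 and ADH2 share 14.0% of their 50-base words and a run of 189 bases, so reads of ADH1 could weigh on ADH2, whose counts are therefore uncertain.

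ADH3, the mitochondrial form, stood at 921, 918 and 803 CPM (0 h), 863, 788 and 743 (1 h), 805, 818 and 812 (3 h) and 721, 717 and 687 (6 h). ADH3 was not called at 1 h (-0.14 ± 0.063) or 3 h (-0.12 ± 0.063, and 0.21 with total counts), and fell, with a log2 fold change of -0.31 ± 0.063 (adjusted p = 0.000718) at 6 h under TMM scaling, where total counts gave -0.017. Leaving 0 h replicate 3 aside, ADH3 fell at each time, with log2 fold changes of -0.24, -0.21 and -0.42. Its fall (log2 change) of -0.20 ± 0.063 from 3 h to 6 h ended without 3 h replicate 1, 2 or 3 or 6 h replicate 2 or 3 (adjusted p from 0.0531 to 0.0807). ADH5, a minor form, stood at 85.4, 72.5 and 41.7 CPM (0 h), 45.0, 42.5 and 38.6 (1 h), 44.5, 40.6 and 36.0 (3 h) and 62.3, 51.6 and 45.5 (6 h). The third 0 h library lay among the 1 h libraries. ADH5 fell, with a log2 fold change of -0.67 ± 0.22 (adjusted p = 0.0275) at 1 h, lost without 0 h replicate 1 or 2 or 1 h replicate 2 or 3 (adjusted p from 0.0652 to 0.112). At 3 h its change was -0.73 ± 0.22 (adjusted p = 0.0183), lost without 0 h replicate 1 or 2 or 3 h replicate 3 (adjusted p from 0.0549 to 0.0761). Neither call held with total counts. At 6 h it stood at -0.33 ± 0.22, and without 0 h replicate 3 the values were -0.95, -1.01 and -0.61 (adjusted p = 0.000839).

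**Figure D4:**
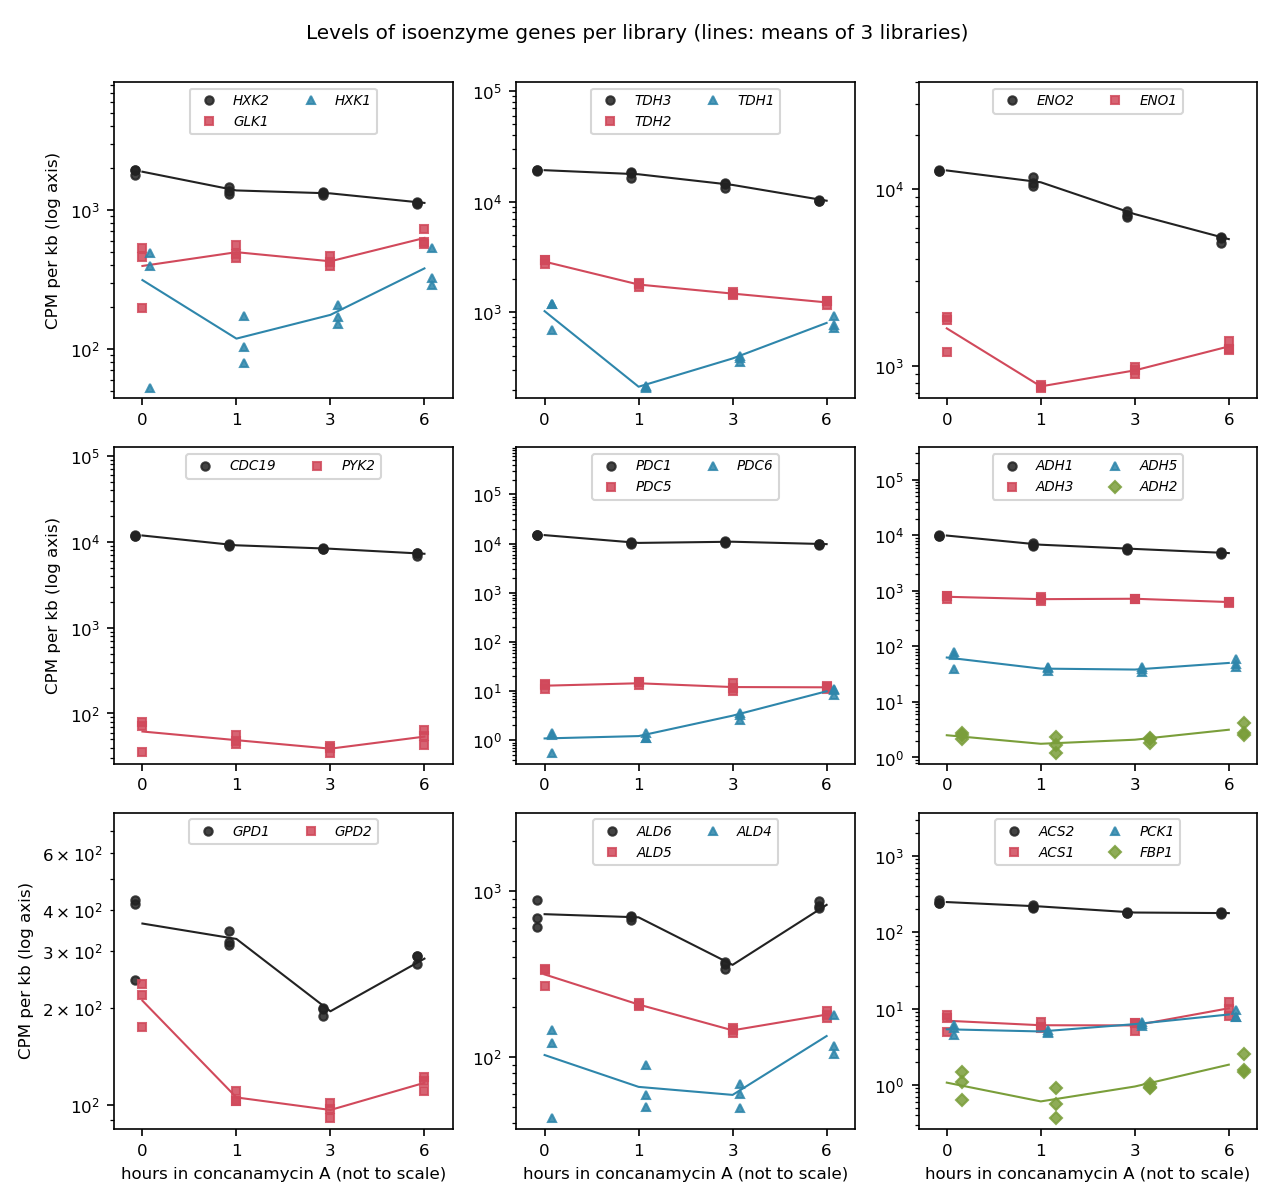
Each panel gives the level of the genes of a step in every library, as CPM per kb of gene on a log axis, with lines through the means of 3 libraries and hours on an axis not to scale. Major forms (black) fall in most panels, TDH1 and ENO1 drop at 1 h and return, and PDC6 climbs from 1.09 to 9.93 CPM per kb.

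Glycerol synthesis begins with GPD1 and GPD2, the glycerol-3-phosphate dehydrogenases, GPD1 being known for the osmotic response and GPD2 for redox balance without oxygen. GPD2 (YOL059W, chromosome XV, 217126 to 218448, plus strand) stood at 289, 314 and 231 CPM (0 h), 136, 146 and 136 (1 h), 120.5, 128 and 134 (3 h) and 146, 162 and 157 (6 h). It was below all 0 h libraries at every later time and fell, with log2 fold changes of -0.99 ± 0.093 (adjusted p = 1.69e-06), -1.12 ± 0.094 (adjusted p = 5.05e-07) and -0.84 ± 0.093 (adjusted p = 4.01e-06). GPD1 stood at 505, 491 and 287 CPM (0 h), 406, 376 and 367 (1 h), 234, 232 and 221 (3 h) and 339, 321 and 339 (6 h). Its 1 h level lay between the third and the other 0 h libraries (-0.16 ± 0.17, adjusted p = 0.452, and -0.42, adjusted p = 1.89e-05 without 0 h replicate 3). GPD1 fell, with a log2 fold change of -0.90 ± 0.17 (adjusted p = 0.00122) at 3 h and stood at -0.36 ± 0.17 (adjusted p = 0.0819) at 6 h, or -0.62 (adjusted p = 1.11e-07) without 0 h replicate 3. DESeq2 with all libraries called the 6 h value lower, at -0.39 (adjusted p = 0.0217). From 3 h to 6 h both rose, GPD1 by 0.54 ± 0.17 and GPD2 by 0.28 ± 0.094. The GPD1 rise ended without 3 h replicate 1, 2 or 3 or 6 h replicate 1 or 3 (adjusted p from 0.0514 to 0.0729), and the GPD2 rise without 3 h replicate 1 or 2 or 6 h replicate 2 or 3 (adjusted p from 0.0664 to 0.0947) and with total counts.

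The next step, glycerol-3-phosphatase, moved apart in its pair of genes. GPP1, the constitutive form, stood at 2317, 2321 and 2205 CPM (0 h), 1206, 1233 and 1203 (1 h), 1344, 1372 and 1398 (3 h) and 1283, 1426 and 1422 (6 h). It fell, with log2 fold changes of -0.91 ± 0.048 (adjusted p = 5.94e-09), -0.73 ± 0.047 (adjusted p = 3.59e-08) and -0.73 ± 0.047 (adjusted p = 1.98e-08). GPP2, the form induced by osmotic stress, stood at 96.2, 85.3 and 78.8 CPM (0 h), 234, 229.6 and 211 (1 h), 259, 273 and 283 (3 h) and 275, 306 and 350.3 (6 h). GPP2 rose by 1.37 ± 0.092 (adjusted p = 5.94e-08), 1.65 ± 0.093 (adjusted p = 8.69e-09) and 1.84 ± 0.093 (adjusted p = 1.58e-09), with every later library above all 0 h libraries. The pair shares no run of 50 bases.

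PCK1, the phosphoenolpyruvate carboxykinase, and FBP1, the fructose-1,6-bisphosphatase, are the gluconeogenic enzymes, both repressed by glucose. PCK1 (YKR097W, chromosome XI, 631152 to 632801, plus strand) stood at 9.17, 9.96 and 7.37 CPM (0 h), 8.78, 8.00 and 8.06 (1 h), 10.2, 11.1 and 9.64 (3 h) and 15.9, 12.8 and 12.7 (6 h). Its 6 h libraries lay above all others. PCK1 was not called at 1 h (-0.099 ± 0.14) or 3 h (0.22 ± 0.14, but 0.55, adjusted p = 0.00307 with total counts), and rose by 0.64 ± 0.14 (adjusted p = 0.00121) at 6 h, or by 0.49 (adjusted p = 0.00689) without 0 h replicate 3. Its rise from 3 h to 6 h, 0.42 ± 0.13, ended without 3 h replicate 1 or 3 or 6 h replicate 1 (adjusted p from 0.0522 to 0.101). FBP1 had raw counts of 15, 9 and 5 (0 h), 9, 6 and 4 (1 h), 9, 9 and 12 (3 h) and 26, 15 and 15 (6 h), the lowest of the 33 genes. FBP1 stood at 0.74 ± 0.35 (adjusted p = 0.0819) at 6 h against 0 h, and at 1.03 (adjusted p = 0.016) with total counts. With the A to C letters of the table's header as a block it was at 0.76 (adjusted p = 0.0415). From 3 h to 6 h it rose by 0.94 ± 0.34 (adjusted p = 0.0421), a call that ended without 0 h replicate 2, 1 h replicate 2, 3 h replicate 1, 2 or 3 or 6 h replicate 1 (adjusted p from 0.0542 to 0.195), with total counts and with DESeq2 (0.93, adjusted p = 0.123).

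In acetate and acetyl-CoA formation, ALD6 and ALD5 fell at 3 h, ALD5 already at 1 h, and both rose from 3 h to 6 h. At 6 h ALD5 was still lower than at 0 h, while ALD6 was not called in the main edgeR fit. ALD6 (YPL061W, chromosome XVI, 432588 to 434090, plus strand), the main cytosolic acetaldehyde dehydrogenase, stood at 913, 1037 and 1324 CPM (0 h), 1068, 1054 and 1012 (1 h), 565, 548 and 508 (3 h) and 1319, 1224 and 1183 (6 h). The 3 h libraries lay below all others. ALD6 was at -0.063 ± 0.11 (adjusted p = 0.652) at 1 h and fell, with a log2 fold change of -1.01 ± 0.11 (adjusted p = 8.8e-06) at 3 h. It rose by 1.20 ± 0.11 (adjusted p = 7.4e-06) from 3 h to 6 h. At 6 h it stood at 0.19 ± 0.11 (adjusted p = 0.144) against 0 h, at 0.31 (adjusted p = 0.000735) without 0 h replicate 3, in which it was high, and at 0.49 (adjusted p = 0.000287) with total counts. ALD5, a mitochondrial form, stood at 533, 521 and 421 CPM (0 h), 319, 330.3 and 323 (1 h), 218, 234 and 227 (3 h) and 268, 298 and 280.2 (6 h). ALD5 fell, with log2 fold changes of -0.60 ± 0.078 (adjusted p = 3.14e-05), -1.12 ± 0.079 (adjusted p = 8.31e-08) and -0.80 ± 0.078 (adjusted p = 1.13e-06), and rose by 0.32 ± 0.078 from 3 h to 6 h.

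ALD4, the other mitochondrial form, known to be glucose-repressed, stood at 226, 188 and 66.8 CPM (0 h), 139, 92.4 and 77.7 (1 h), 107, 92.8 and 76.7 (3 h) and 281, 181 and 164 (6 h). The 0 h libraries spanned most of that range. ALD4 was not called in any comparison of the main edgeR fit, with -0.64 ± 0.42 (adjusted p = 0.238), -0.81 ± 0.43 (adjusted p = 0.144) and 0.38 ± 0.42 (adjusted p = 0.457) against 0 h and 1.18 ± 0.42 (adjusted p = 0.0503) from 3 h to 6 h. DESeq2 with all libraries called the last difference, at 1.16 (adjusted p = 0.024), as did edgeR with the filter at 10 CPM (1.19, adjusted p = 0.0465). So did edgeR with the A to C letters of the table's header as a block (1.15, adjusted p = 0.0117). Without 0 h replicate 3 it fell, with log2 fold changes of -1.05 (adjusted p = 0.0256) at 1 h and -1.21 (adjusted p = 0.0135) at 3 h, and the last difference was 1.18 (adjusted p = 0.0117). ACS2, the acetyl-CoA synthetase needed on glucose, stood at 496, 497 and 539 CPM (0 h), 446, 462 and 432 (1 h), 369, 376 and 371 (3 h) and 352, 376 and 369 (6 h). ACS2 fell, with log2 fold changes of -0.19 ± 0.049 at 1 h, where total counts turned the sign (0.022), of -0.46 ± 0.049 at 3 h, which total counts did not call (-0.12, adjusted p = 0.0631), and of -0.48 ± 0.049 (adjusted p = 1.85e-06) at 6 h. For ACS2 the change from 1 h to 3 h was -0.26 ± 0.049, a call that ended with total counts (-0.14, adjusted p = 0.0533). ACS1, the glucose-repressed form, stood at 16.1, 17.8 and 10.7 CPM (0 h), 14.4, 12.1 and 12.4 (1 h), 13.9, 14.0 and 10.8 (3 h) and 26.5, 21.4 and 17.0 (6 h). ACS1 rose by 0.54 ± 0.19 (adjusted p = 0.0264) at 6 h, lost without 0 h replicate 3 or 6 h replicate 1 or 2 (adjusted p from 0.0538 to 0.129), and by 0.75 ± 0.19 (adjusted p = 0.00715) from 3 h to 6 h.

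The balance between isoenzymes was measured as the log2 ratio of their counts per kb within each library, which does not depend on the scaling of libraries. Over the 4 times 15 of 18 pairs changed by an exact permutation test over all arrangements of the 12 libraries into 4 times (adjusted p under 0.05 over the 18 pairs, smallest p possible 6.5e-05). The pairs include the subunits PFK1 and PFK2, and PCK1 and FBP1 against the opposing CDC19 and PFK1. Ratios of other gene pairs were not tested. Since 78.5% of all features changed by edgeR's F test, the count alone does not set these pairs apart. The ratio of TDH1 to TDH3 was -4.28 ± 0.46, -6.38 ± 0.08, -5.21 ± 0.03 and -3.68 ± 0.19 (mean ± SD of log2, n = 3) at 0, 1, 3 and 6 h (exact permutation test, adjusted p = 0.00039). TDH1 thus stood at 5.15%, 1.20%, 2.69% and 7.80% of the TDH3 level, dropping and then passing its start, with every 6 h library above every 0 h library. ENO1 stood at 12.6%, 7.04%, 13.1% and 24.7% of ENO2 (adjusted p = 0.00146, exact permutation test), and its log2 difference at 3 h turned from 0.058 to -0.14 without 0 h replicate 3. TDH1, TDH2 and TDH3 share 15.7%, 31.3% and 24.4% of their 50-base words with other places, and ENO1 and ENO2 23.6%, so these ratios are uncertain where such reads were split or dropped.

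The GLK1 level per kb was 19.3%, 35.8%, 32.4% and 55.6% of that of HXK2 at 0, 1, 3 and 6 h (adjusted p = 0.000501, exact permutation test). Each later library lay above all 0 h libraries, and the log2 rise at 6 h was 1.53, or 1.13 without 0 h replicate 3. The ratio of HXK1 to HXK2 was not called (adjusted p = 0.141, exact permutation test), and its 3 h value against 0 h turned from 0.20 to -0.78 without that library. PDC6 went from 0.00703% to 0.101% of PDC1, a log2 rise of 3.85 (adjusted p = 0.00039, exact permutation test). ADH3, per kb, stood at 7.89%, 10.5%, 12.7% and 13.2% of ADH1 (adjusted p = 0.000501, exact permutation test). PFK1 to PFK2, the subunits of 1 enzyme, moved least among the changed pairs, from 85.2% to 74.5% (adjusted p = 0.00156, exact permutation test).

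Among the remaining pairs, GPD2 stood at 59.1%, 32.4%, 49.5% and 41.3% of GPD1, lowest at 1 h (adjusted p = 0.000501, exact permutation test). ALD5 stood at 43.6%, 29.8%, 40.3% and 21.8% of ALD6 (adjusted p = 0.00495, exact permutation test), with every 6 h library below every 0 h library. ACS1 went from 2.74% to 5.59% of ACS2 (adjusted p = 0.0128, exact permutation test, and 0.0523 without 6 h replicate 1). At 6 h the gluconeogenic genes stood higher in ratio to the glycolytic genes they oppose, which themselves fell (log2 fold change -0.71 for CDC19, -0.87 for PFK1). FBP1, with 4 to 26 counts per library, was not itself called at 6 h against 0 h (edgeR adjusted p = 0.0819). PCK1 against CDC19 rose by a log2 ratio of 1.35 at 6 h, and FBP1 against PFK1 by 1.64 (adjusted p = 0.00039 and 0.00316, exact permutation test), while both numerators stayed under 1% of their denominators. ADH5 to ADH1 changed with all libraries (adjusted p = 0.0219, exact permutation test), but not without 6 h replicate 1 (0.0957) or 6 h replicate 2 (0.0564). TDH2 to TDH3 changed by a log2 ratio of -0.52 at 3 h and -0.31 at 6 h (adjusted p = 0.000501, exact permutation test). At 6 h ADH2 to ADH1 stood higher by 1.34 and PDC5 to PDC1 by 0.50 (adjusted p = 0.00477 for each, exact permutation test). ADH2 and PDC5 themselves were not called at 6 h (edgeR adjusted p = 0.281 and 0.48), while ADH1 and PDC1 fell. PYK2 to CDC19 and ALD4 to ALD6 were not called (adjusted p = 0.239 and 0.453, exact permutation test). All 18 pairs passed without 0 h replicate 3.

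**Figure D5:**
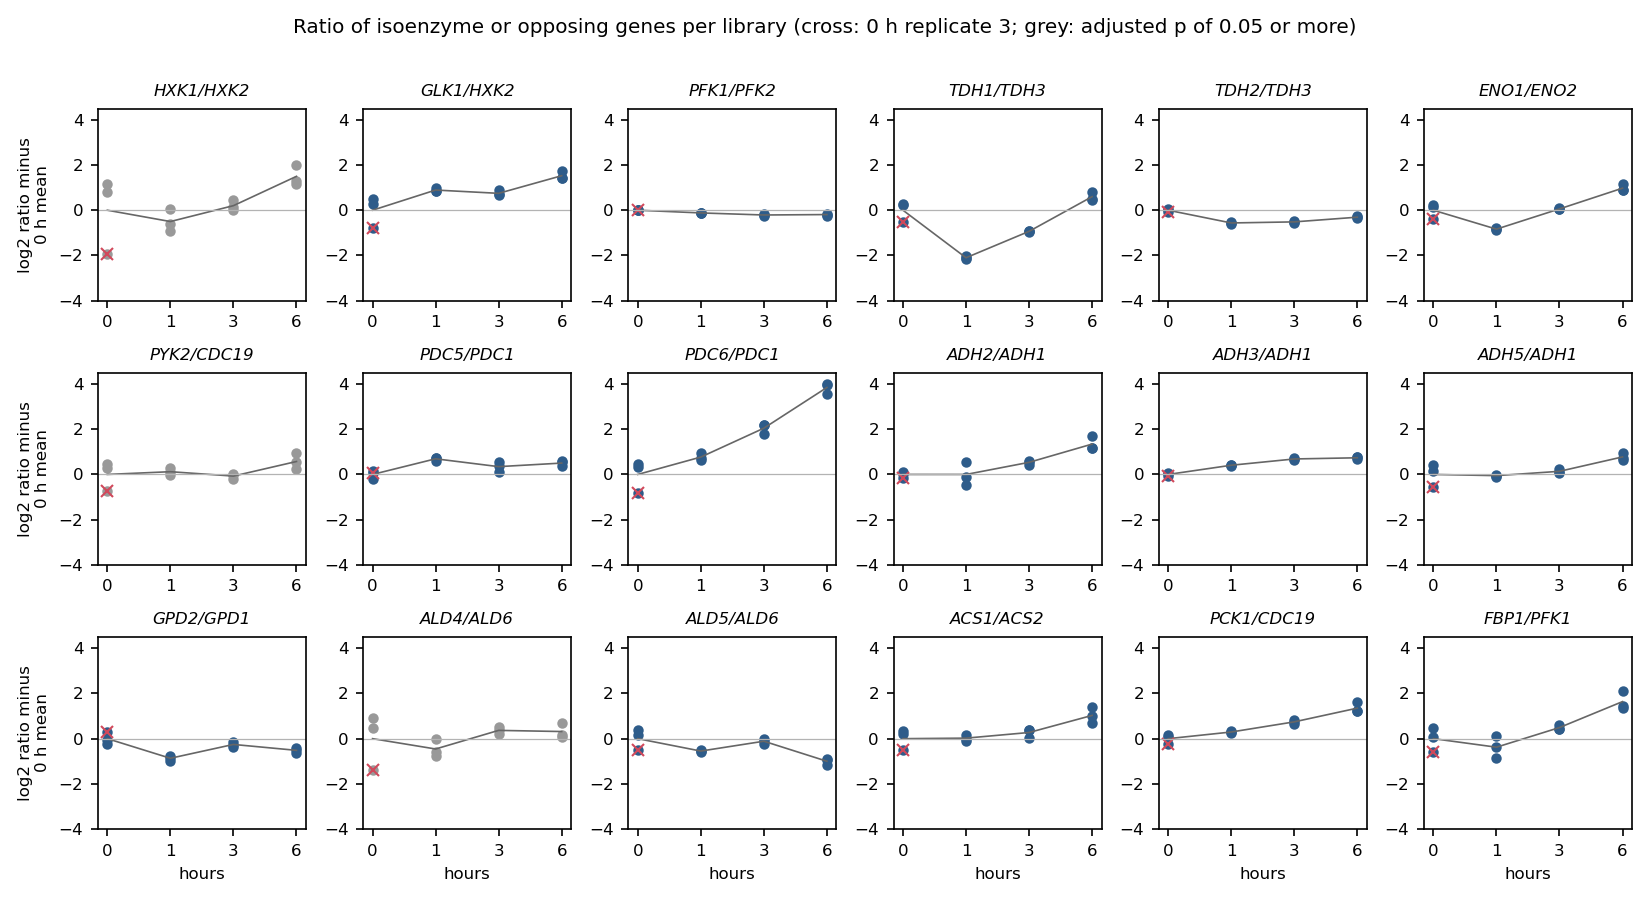
Panels show, for 18 pairs of isoenzyme or opposing genes, the log2 ratio of counts per kb in each library minus the 0 h mean, against hours, with 0 h replicate 3 crossed and pairs not called in grey. TDH1/TDH3 stands at -2.10 at 1 h and at 0.60 at 6 h, and PDC6/PDC1 climbs to 3.85.

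Levels per kb placed the 33 genes far apart. At 0 h TDH3 and FBA1 led, at 19269 ± 369.9 and 18014 ± 148 CPM per kb (mean ± SD, n = 3), then PDC1 at 14877 ± 216. Close behind, ENO2 at 12672 ± 129 and GPM1 at 12568 ± 164 CPM per kb differed by less than the SD of either. By 6 h TDH3, at 10208 ± 207 CPM per kb, and PDC1, at 9759.8 ± 205, led, and FBA1 had come down to 7026 ± 424, next to CDC19 at 7272 ± 299.7 and GPM1 at 7079.5 ± 141. The lowest at 0 h were FBP1 and PDC6, at 1.07 ± 0.419 and 1.09 ± 0.470 CPM per kb, which did not differ beyond their spread.

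Further genes of these pathways came from lists chosen by function, of which PDC2 stood in 2. Among 13 other glycolytic and fermentative enzymes, 4 rose and 3 fell at 1 h (7 and 2 under total counts), beside 24.5% and 23.4% of all features, so the count at 1 h was near the background. At 6 h 6 rose and 1 fell (10 and 1 under total counts), beside 33.04% and 28.9% of all features. EMI2, a glucokinase paralogue known to be glucose-repressed, stood at 475, 417 and 127 CPM (0 h), 151, 119.6 and 116 (1 h), 146, 128 and 109 (3 h) and 216, 154 and 134 (6 h). It was at -1.40 ± 0.42 (adjusted p = 0.0214) at 1 h and -1.42 ± 0.42 (adjusted p = 0.0196) at 3 h, or -1.83 (adjusted p = 0.000208) and -1.85 (adjusted p = 0.000182) without 0 h replicate 3. The call at 1 h was lost without 0 h replicate 1 or 2 or 1 h replicate 2 or 3 (adjusted p from 0.0632 to 0.0821), that at 3 h without 0 h replicate 1 or 2 or 3 h replicate 2 or 3 (adjusted p from 0.0521 to 0.0782). ADH4, another alcohol dehydrogenase, fell, with log2 fold changes of -0.70 ± 0.081 (adjusted p = 1.17e-05) at 1 h and -0.82 ± 0.082 (adjusted p = 2.66e-06) at 3 h. At 6 h its change was -1.38 ± 0.084 (adjusted p = 1.04e-08), from 101, 100.2 and 112 CPM at 0 h to 36.0, 40.0 and 44.3. GPM2, a paralogue of GPM1, rose by 0.81 ± 0.12 (adjusted p = 7.39e-05) at 3 h. At 6 h it rose by 1.49 ± 0.11 (adjusted p = 1.01e-07) against 0 h, from 21.9, 22.0 and 16.1 CPM to 62.9, 54.5 and 51.5. ALD3 was at -1.16 ± 0.42 (adjusted p = 0.0435) at 1 h, a call that ended without 10 of the 12 libraries taken in turn, without the filter (adjusted p = 0.0506) and with total counts, and it shares 40.4% of its 50-base words and is also 1 of the 14 stress genes.

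Of 18 genes of pyruvate and glyoxylate use, 10 fell and 1 rose at 3 h, beside 24.5% and 26.3% of all features. Total counts turned that balance, with 3 lower and 5 higher. At 6 h 6 fell and 4 rose, beside 28.9% and 33.04%, with 4 and 9 under total counts. At 3 h without 0 h replicate 3, 13 fell and 0 rose (DESeq2 with all libraries gave 9 and 0). PYC2, a pyruvate carboxylase, stood at 516, 467 and 401 CPM (0 h), 293, 279 and 259 (1 h), 227, 219.7 and 211 (3 h) and 203, 185 and 175 (6 h). It fell, with log2 fold changes of -0.74 ± 0.086 (adjusted p = 1.22e-05) at 1 h, -1.07 ± 0.086 (adjusted p = 3.48e-07) at 3 h and -1.30 ± 0.087 (adjusted p = 2.74e-08) at 6 h, though 8.44% of its 50-base words also occur elsewhere. ATO3, an ammonium exporter homologue, fell, with log2 fold changes of -0.49 ± 0.090 (adjusted p = 0.000633) at 1 h and -1.06 ± 0.092 (adjusted p = 3.82e-07) at 6 h. MPC3, the mitochondrial pyruvate carrier subunit used in respiration, rose at 6 h by 1.27 ± 0.34 (adjusted p = 0.00694), or 0.90 (adjusted p = 0.0106) without 0 h replicate 3. In the glycerol list, 9 of 10 genes were tested, and 3 rose and 1 fell at 6 h (6 and 1 under total counts, 2 and 1 without 0 h replicate 3), a share of rises near the 33.04% of all features.

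Among 17 transcriptional regulators of carbon metabolism, 2 rose and 5 fell at 1 h, 2 rose and 5 fell at 3 h, and 7 rose and 3 fell at 6 h. Total counts gave 4 and 4, 10 and 3, and 10 and 2, which turned the balance at 3 h. Of all features 24.5% rose and 23.4% fell (1 h), 26.3% and 24.5% (3 h), and 33.04% and 28.9% (6 h). Leaving out 0 h replicate 3, the numbers were 3 and 9, 4 and 7, and 6 and 3. HAP4, the activator subunit of the respiratory regulator, stood at 362, 344 and 152 CPM (0 h), 147, 110.1 and 93.4 (1 h), 111, 80.4 and 58.4 (3 h) and 102, 79.8 and 68.6 (6 h). HAP4 fell, with log2 fold changes of -1.29 ± 0.35 (adjusted p = 0.0137), -1.79 ± 0.36 (adjusted p = 0.0027) and -1.78 ± 0.36 (adjusted p = 0.0019), and the call at 1 h ended without 0 h replicate 1 (adjusted p = 0.0542). ADR1, an activator of ethanol use including ADH2, stood at 92.5, 72.9 and 39.5 CPM (0 h), 42.6, 38.2 and 36.1 (1 h), 37.5, 31.6 and 30.1 (3 h) and 175, 134 and 143 (6 h). It fell, with log2 fold changes of -0.82 ± 0.25 (adjusted p = 0.0231) at 1 h and -1.06 ± 0.26 (adjusted p = 0.00682) at 3 h. At 6 h it rose by 1.13 ± 0.24 (adjusted p = 0.00226) against 0 h. Without 0 h replicate 3 the values at 3 and 6 h were -1.37 and 0.82. MIG2, a repressor in glucose repression, stood at 18.9, 14.7 and 23.3 CPM (0 h), 41.1, 42.5 and 39.2 (1 h), 30.5, 34.6 and 38.9 (3 h) and 44.9, 50.1 and 49.3 (6 h). MIG2 rose by 1.11 ± 0.13 (adjusted p = 1.7e-05) at 1 h and 1.34 ± 0.13 (adjusted p = 1.41e-06) at 6 h.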

How the data were processed

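RNA from 12 libraries, 3 at each of 0, 1, 3 and 6 h, was measured by RNA sequencing. Per the labels' protocols, bead beating, column purification with DNase and rRNA depletion preceded a stranded library kit. The authors deposited 1 table of raw counts, whole numbers of reads on each feature, and the submitters' processing notes list R64 as build with STAR 2.5.2b and featureCounts 1.5.1. How featureCounts was set for strand and for multimapping reads, and the annotation release, is not given in the sources used. The table's 3 blank lines were left out.

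Groups came from the labels. The quasi-likelihood test of edgeR 4.0.16 (R 4.3.3) was applied to the counts, after edgeR's filter on low counts (5615 features kept, 601 left untested) and TMM scaling, in a fit of all 12 libraries with 8 residual degrees of freedom. TMM factors were 0.843 to 0.881 (0 h), 0.995 to 1.01 (1 h), 1.07 to 1.11 (3 h) and 1.03 to 1.09 (6 h). Adjustment followed Benjamini and Hochberg, comparison by comparison. No 2 replicates were copies of each other, since their counts differed beyond sampling noise, with a chi-square over its degrees of freedom of 3.23 to 31.7, highest with 0 h replicate 3. Spread between libraries exceeded counting error, and only the genes with few counts are limited by depth.

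Ratios used counts plus 0.5 per kb of gene. Sequence was read from the R64 genome with Biopython 1.88. Alternatives were DESeq2 1.42.0, total counts, no filter, a filter at 10 CPM in 3 libraries, each library left out, a pseudocount of 5, coding length, and a replicate block added after the table's header was seen. Steps were tested on simulated data. The genes and lists were chosen with earlier results of these data known. Outside the 33 genes, those named passed the threshold against 0 h with an absolute log2 fold change of at least 1 and a mean of 10 CPM or more in the higher of both groups, and GPP1 was added after its values were seen as the partner of GPP2. Smaller changes of the named genes at other times are not all given. RHR2, HOR2 and SGC1 of the lists had no match by symbol.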

Additional observations from a re-analysis of the deposited data

How the results depend on the processing

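With total counts in place of TMM, the number of the 33 genes that rose moved to 2 at 1 h, 4 at 3 h and 7 at 6 h against 0 h, and from 1 h to 3 h to 6 that rose and 9 that fell. Total counts also turned the sign of PGI1 (0.025), PGK1 (0.20), GPM1 (0.025) and ACS2 (0.022) at 1 h, and of PGI1 (0.17), PGK1 (0.081), ADH3 (0.21), TKL1 (0.078) and GND1 (0.0020) at 3 h, and of GND1 (0.10) at 6 h against 0 h, since they leave the shift of all features in place. Leaving out each library in turn gave 2 to 5 genes higher at 6 h against 0 h, the 5 without 0 h replicate 1, and 6 to 15 higher from 3 h to 6 h, the 6 without 3 h replicate 1, 3 h replicate 3 or 6 h replicate 1 and the 15 without 0 h replicate 3. The genes lower numbered 17 to 25 (1 h), 20 to 26 (3 h) and 18 to 23 (6 h) against 0 h, the highest each time without 0 h replicate 3, and 13 to 18 ratio pairs passed. The log2 ratios against 0 h turned without 0 h replicate 3 for HXK1 to HXK2 (-0.78 to 0.77), ENO1 to ENO2 (-0.14 to 0.18), ADH5 to ADH1 (-0.15 to 0.35) and ALD4 to ALD6 (-0.32 to 0.82) at 3 h and ALD4 to ALD6 (-0.37 to 0.77) at 6 h, and without 0 h replicate 1 for ALD5 to ALD6 (-0.37 to 0.069) at 3 h, each with its range over the omissions. DESeq2 kept direction and side of the threshold for 199 of 205 fold changes, the filter at 10 CPM for 193 of 195, no filter for 204 of 205, total counts for 161 of 205, and the pseudocount of 5 and coding length for all 36 ratio differences. The letters A to C in the table's header were not used as pairs in the main fit, and the labels do not give them. Of 18 pairs of libraries with the same letter, 12 had deviations correlated above 0.1 (-0.077 to 0.46, median 0.32). Of 36 pairs with different letters 6 did (median -0.11), and the pairs at or under 0.1 with the same letter were those of replicate 2. Same-letter pairs ran from 0.24 to 0.46 for replicate 1 and from 0.27 to 0.45 for replicate 3. Pairs of replicate 1 with replicate 3 of another time ran from -0.48 to -0.26. Replicate 2 at 0 h correlated with replicate 1 of 1, 3 and 6 h (0.37, 0.27 and 0.38). With replicate 2 of those times it stood at -0.044, 0.072 and -0.077. Deviations were taken from the mean of each time, so positive values for some pairs come with negative values for others. Whether the letters mark a pairing across times, which the main fit leaves out, was not tested. As a replicate block the letters gave 5 genes higher at 6 h against 0 h in place of 3, and kept 198 of 205 fold changes on their side. TDH3 and ADH3 (1 h) and PYK2 (3 h) passed as lower with the block but not in the main fit. GLK1 and FBP1 (6 h) and ADH5 and ALD4 (3 h to 6 h) passed as higher. The edgeR adjusted p of these 7 ran from 0.0117 to 0.0415. Depth limits FBP1, PDC6 and ADH2, which held 4 to 26, 7 to 185 and 13 to 43 counts per library.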

Other observations

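The pentose phosphate pathway, which branches from glucose-6-phosphate and supplies NADPH and ribose, has isoenzyme pairs of its own. At 6 h the minor forms TKL2, GND2, SOL4 and NQM1 rose while SOL3 fell. These minor forms are named because they passed the threshold with an absolute log2 fold change of at least 1 and 10 CPM. Their rises are thus the reason for naming them, and a shared rise of minor forms was not tested. TKL2 and GND2, at means of 3.15 and 8.66 CPM at 0 h, reached 10 CPM only at later times. The calls for the major forms TKL1, GND1 and TAL1 at 6 h depended on the scaling. Of 11 genes in that list, 4 rose and 5 fell at 6 h against 0 h (7 and 3 under total counts), beside 33.04% and 28.9% of all features, with a median log2 fold change of 0.043. TKL2, the minor transketolase, stood at 4.23, 3.06 and 2.15 CPM (0 h), 1.88, 1.46 and 2.02 (1 h), 4.89, 5.62 and 4.42 (3 h) and 31.1, 23.9 and 22.1 (6 h). TKL2 fell, with a log2 fold change of -0.84 ± 0.29 (adjusted p = 0.0289) at 1 h. It rose by 2.99 ± 0.21 (adjusted p = 3.43e-08) at 6 h against 0 h, or 2.75 (adjusted p = 5.3e-09) without 0 h replicate 3. TKL1, the main transketolase, stood at 1954, 1941 and 2053 CPM (0 h), 2228, 2078 and 2010.4 (1 h), 1644, 1679 and 1655 (3 h) and 1411, 1514 and 1510.0 (6 h), and fell, with a log2 fold change of -0.42 ± 0.048 (adjusted p = 4.98e-06) at 6 h, with -0.12 (adjusted p = 0.0642) under total counts.

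GND2, the minor 6-phosphogluconate dehydrogenase, rose by 1.60 ± 0.18 (adjusted p = 4.77e-06) at 6 h, from 10.7, 8.43 and 6.84 to 30.3, 25.9 and 23.4 CPM, while GND1, the main form, fell, with a log2 fold change of -0.20 ± 0.038 (adjusted p = 0.000517) under TMM scaling but rose with total counts, at 0.10 (adjusted p = 0.0484). SOL4, a 6-phosphogluconolactonase, rose by 1.00 ± 0.21 (adjusted p = 0.0011), or 0.71 (adjusted p = 0.000127) without 0 h replicate 3, and its partner SOL3 fell, with a log2 fold change of -0.70 ± 0.062 (adjusted p = 5e-07). NQM1, a paralogue of the transaldolase TAL1, stood at 35.9, 33.5 and 10.1 CPM (0 h), 50.6, 39.4 and 38.3 (1 h), 61.8, 59.6 and 51.6 (3 h) and 182, 139 and 123 (6 h), and rose by 1.10 ± 0.35 (adjusted p = 0.0239) at 3 h and 2.46 ± 0.34 (adjusted p = 0.000128) at 6 h. Without 0 h replicate 3, in which NQM1 was low, the values were 0.69 (adjusted p = 0.0177) and 2.05 (adjusted p = 1.59e-05), and the call at 3 h ended without 3 h replicate 1 or 2 (adjusted p from 0.0554 to 0.0584). TAL1 was at 0.043 ± 0.044 (adjusted p = 0.412) at 6 h, and at 0.34 (adjusted p = 8.49e-05) with total counts. RKI1, the ribose-5-phosphate isomerase, fell, with log2 fold changes of -0.92 ± 0.076 (adjusted p = 5.01e-07) at 1 h, -0.66 ± 0.075 (adjusted p = 9.5e-06) at 3 h and -1.13 ± 0.077 (adjusted p = 3.1e-08) at 6 h. The major partners TKL1, GND1, SOL3 and TAL1 are named beside the minor forms after their values were seen. The summed level of the 14 stress genes was highest in the same 6 h libraries, and its part in these rises was not tested.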
